A study of Homo sapiens with 16 samples.

Results

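The gene RBPJ was targeted with 2 short hairpin RNAs (shRNAs) in HCC70, a human cell line from a basal-like breast tumour that lacks hormone receptors, and each RBPJ library was compared with 6 hairpin controls. All genes with a deposited value of 5 or more in at least 2 of these 8 libraries were taken, which gave 10383 of the 11282 genes in the table and 8 of the 16 samples of the series. Per its title, the series asks what regulates heterogeneity in basal-like tumours of the breast, and how cells divide symmetrically or not. RNA was measured by a 3′ counting method in the manner of CEL-Seq, and the values are DESeq2-normalised read counts, which are not divided by gene length. RBPJ 1 and RBPJ 2 are 1 library each, and per the labels each carries a different hairpin. The controls are shRFP 1 and 2, shLACZ 1 and 2 and shLUC 1 and 2, named for a red fluorescent protein, a bacterial galactosidase and a luciferase, and again each library carries a hairpin of its own. All 8 libraries come from HCC70 cells infected with their shRNA and grown in multiwell plates, with no further agent stated, and no time after infection is stated in the labels. As each library carries a hairpin of its own, the spread between the controls holds differences between hairpins along with technical ones. These cannot be told apart, and nothing in the labels says that a hairpin was repeated in a further culture. The p-values measure only the spread between these libraries. The empty-vector libraries plko 1 and plko 2 were left out of the comparisons, and their values are given where they touch a result.

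RBPJ is the DNA-binding protein through which Notch receptors act on genes. A Notch receptor that meets its ligand on a neighbouring cell is cut by ADAM proteases and by gamma-secretase, and the freed intracellular part joins RBPJ and a Mastermind coactivator at target genes such as HES and HEY repressors and NRARP. Without that partner RBPJ can hold the same genes off with corepressors such as SPEN and NCOR. In the mammary epithelium Notch signalling is known for its part in the choice between luminal and basal fate.

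The RBPJ transcript (ENSG00000168214) fell in RBPJ 2 and not in RBPJ 1. It stood at 46.8 in shRFP 1, 43.1 in shRFP 2, 54.9 in shLACZ 1, 47.1 in shLACZ 2, 49.8 in shLUC 1 and 48.3 in shLUC 2. RBPJ 2 held 8.53 (17.7% of the control mean, 18 recovered reads), a log2 difference of -2.37 ± 0.29 (SE) with a limma adjusted p of 1.28e-05. The value of 43.3 with RBPJ 1 lay inside the control range, at -0.15 ± 0.29 with an adjusted p of 0.971, so the transcript does not bear out its label, and the sample is called the library labelled RBPJ 1 from here on. The direct contrast of RBPJ 2 with the library labelled RBPJ 1 was -2.21 ± 0.38 (limma adjusted p = 0.00129). Taken as a pair, the hairpins gave -1.26 ± 0.37 with an adjusted p of 0.282, and an exact permutation test over the 28 choices of 2 of the 8 libraries gave a 2-sided p of 0.0714, where the smallest possible is 0.0357. Processed copies of RBPJ exist in the genome, and reads may have been shared among them in the authors' counting. The comparisons of the 2 hairpins share the same 6 controls. A lone library has no replicate, so its error was taken from the 6 controls on the assumption that it varies as they do.

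**Figure D1:**
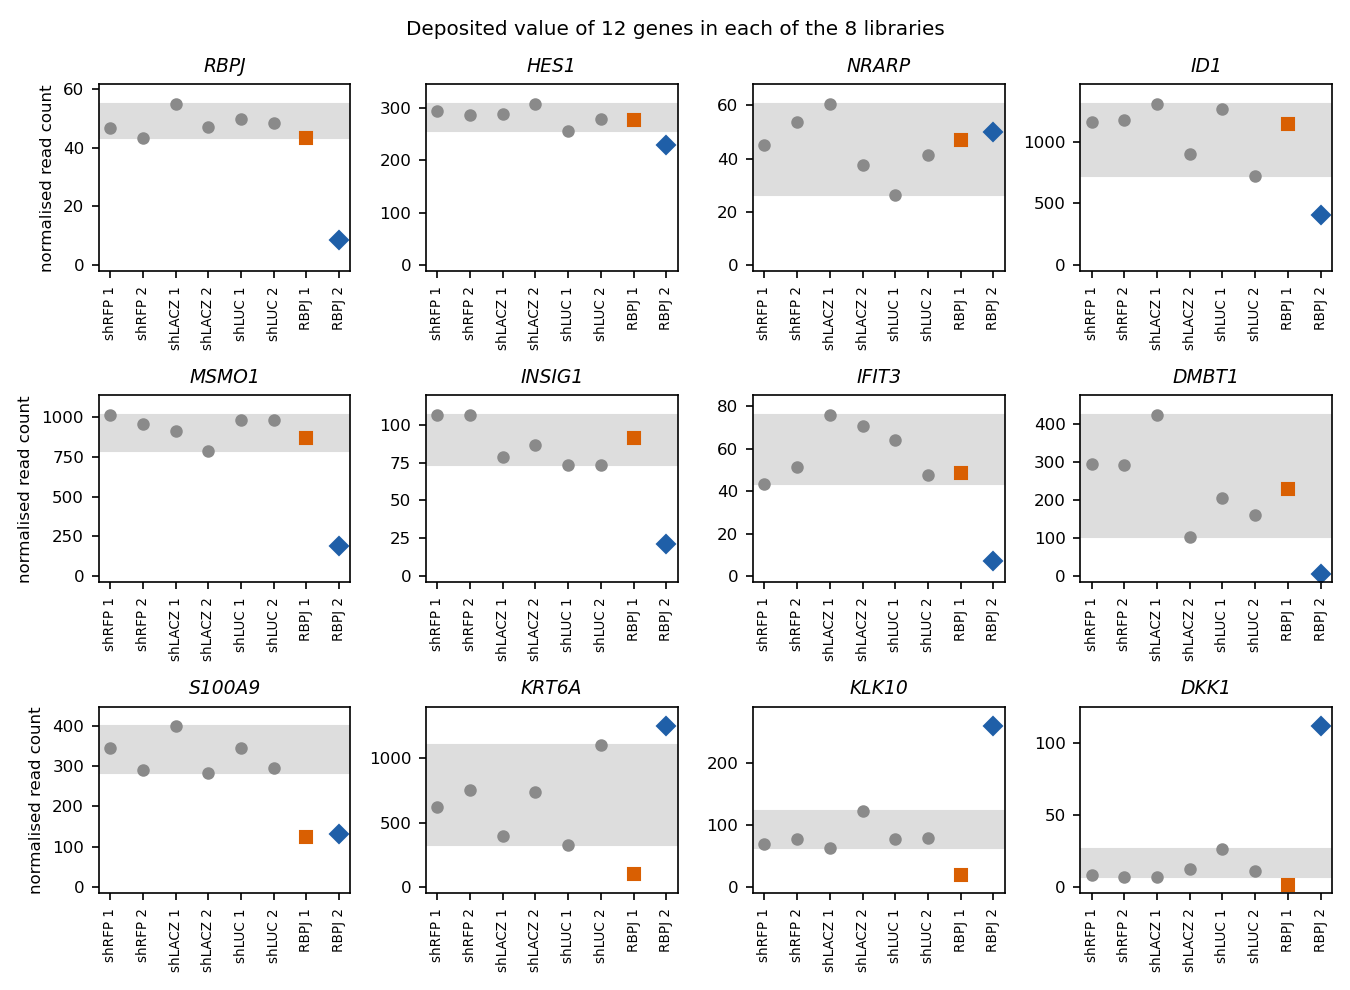
Deposited value (normalised read count, axes starting near 0) of 12 genes in each of the 8 libraries, with grey points for the 6 hairpin controls, a grey band over their range, an orange square for RBPJ 1 and a blue diamond for RBPJ 2. RBPJ is at 8.53 in RBPJ 2 and within the control band in RBPJ 1, S100A9 is below the band in both, and KLK10 is below it in RBPJ 1 and above it in RBPJ 2.

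The libraries differed in depth, from 580015 to 1264671 recovered reads in the controls against 3090666 in the library labelled RBPJ 1 and 1762664 in RBPJ 2. Several markers of basal epithelium were present in all 8 libraries, with KRT5 at 2226 to 3706 and KRT16 at 378 to 877. The basal markers KRT14 (19.3 to 66.7) and ITGB4 (8.95 to 25.1) were far lower. Simple and luminal markers were present too: KRT7 at 1202 to 2029, KRT19 at 921 to 1599, EPCAM at 278 to 386 and FOXA1 at 65.1 to 160. TP63 (0.68 to 4.22), ESR1 (3.4 to 10.7) and PGR (0 to 4.27) were low. Of 11 fibroblast and endothelial markers 5 were in the table and summed to 27.8 in the library labelled RBPJ 1, 35.6 in RBPJ 2 and 13.2 to 31.5 in the controls. Of 7 leukocyte markers 4 were in the table and summed to 306.1, 79.2 and 85.0 to 315.4 in the same order, with the defining marker PTPRC at 0 to 3.23. In the library labelled RBPJ 1 the difference from the controls also moved with a gene's level: its median was 0.36 (log2) over the 1038 genes with the lowest control values and -0.15 over the 1039 with the highest, outside the -0.07 to 0.28 and -0.04 to 0.05 spanned by the controls. RBPJ 2 had 0.32 over the lowest genes, also above the control span, and 0.03 over the highest, within it. In these bulk libraries fewer cells of a type and less RNA per cell cannot be told apart.

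Few genes of the Notch pathway passed with either hairpin, but few of all genes did. In RBPJ 2, 2.44% of all genes tested were lower and 0.77% higher at a limma adjusted p under 0.05. The shares were 0.289% and 0.0193% in the library labelled RBPJ 1. The 2 tested ligands, 3 receptors, 12 genes of receptor maturation and cleavage and 15 of trafficking and turnover held no gene past the limma threshold (adjusted p under 0.05) in either library. NOTCH3, one of the receptors, was at 253 to 369 (median 306) in the controls, 271 in the library labelled RBPJ 1 and 204 in RBPJ 2, where its log2 difference was -0.56 ± 0.22 (adjusted p = 0.215). NOTCH1 (15.5 to 33.5, median 21.1 in the controls, 29.3 and 22.8 with the hairpins) and the ligand JAG2 (20.4 to 32.7, median 25.4, then 22.1 and 26.6) lay within their control ranges. Of 22 tested members of the RBPJ complex and its cofactors, 2 were lower in RBPJ 2, RBPJ itself and TBL1X, a corepressor subunit, which had 28.4 against 46.5 to 71.8 (median 63) in the controls (log2 difference -1.03 ± 0.29, adjusted p = 0.0474). TBL1X was just past the threshold and missed it when shRFP 1 (adjusted p = 0.0932), shRFP 2 (0.0853), shLACZ 2 (0.0641) or shLUC 1 (0.079) was left out. The corepressor SPEN (65.9 to 91.2, median 76.2, then 115 and 85.8) and the coactivator MAML1 (28.6 to 40.7, median 31.4, then 38.5 and 32.2) did not pass in either library.

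The Notch target genes are where RBPJ is known to bind, and the promoters of HES1 and HES4 show the letters that it reads. The 250 bases before the RefSeq start sites are given 5′ to 3′ on the gene's own strand (GRCh38.p14), with every match to GTGGGAA, the core RBPJ motif, in capitals, and RBPJ's own promoter is set beside them, where 1 of the 2 matches is on the opposite strand and so reads TTCCCAC. Where a gene had several start sites, the window with the most matches is shown, also for the genes further on.
HES1, chr3:194135898-194136147, plus strand: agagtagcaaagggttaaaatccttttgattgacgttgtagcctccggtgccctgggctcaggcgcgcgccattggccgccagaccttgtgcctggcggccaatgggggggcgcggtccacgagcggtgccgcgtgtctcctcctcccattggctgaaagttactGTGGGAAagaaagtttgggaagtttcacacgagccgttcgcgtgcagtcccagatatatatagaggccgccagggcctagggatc
HES4, chr1:1000098-1000347, minus strand: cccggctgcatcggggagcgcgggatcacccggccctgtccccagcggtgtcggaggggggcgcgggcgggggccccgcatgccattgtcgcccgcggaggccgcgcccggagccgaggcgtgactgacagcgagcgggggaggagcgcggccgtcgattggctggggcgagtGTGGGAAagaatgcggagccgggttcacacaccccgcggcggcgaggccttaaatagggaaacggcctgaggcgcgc
RBPJ, chr4:26319496-26319745, plus strand: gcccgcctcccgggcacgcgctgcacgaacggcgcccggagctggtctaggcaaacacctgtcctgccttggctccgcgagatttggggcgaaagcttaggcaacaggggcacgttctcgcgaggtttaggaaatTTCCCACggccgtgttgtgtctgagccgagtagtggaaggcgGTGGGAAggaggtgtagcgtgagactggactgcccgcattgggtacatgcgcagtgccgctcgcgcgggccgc
The match lies 85 bases before the start of HES1 and 77 before that of HES4. Searched on both strands of the 300-base windows, GTGGGAA was present in 5 of the 18 tested Notch targets that had a window, and in 6.25% of all 35116 windows, several of which can belong to 1 gene. A match is a description of the letters only.

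Of the 23 tested Notch targets ID1 alone passed, in RBPJ 2, and none did in the library labelled RBPJ 1. By position, 9 of the 23 lay below all 6 controls in RBPJ 2 (18.4% of all genes tested did). Another 4 lay above all 6 (2130 of 10383 genes did). HES1, a repressor and the classical Notch target, was at 256 to 307 (median 287) in the controls, 277 in the library labelled RBPJ 1 and 229 in RBPJ 2, a log2 difference of -0.31 ± 0.20 in RBPJ 2 with a limma adjusted p of 0.557. RBPJ 2 was thus below all 6 controls, but the difference did not pass. HES4 had 20.4 to 42.2 (median 37) in the controls with 49.2 and 29.9 in the RBPJ libraries. NRARP, a feedback inhibitor of Notch, had 26.5 to 60.5 (median 43.3) with 47 and 49.8, both inside the control range. HES5 stood apart upward in RBPJ 2, at 26.1 against 0 to 7.48 (median 4.54) in the controls and 2.98 in the library labelled RBPJ 1, and its call depended on the test (limma adjusted p = 0.113, edgeR adjusted p = 0.000971). HEY2, with 3 reads in RBPJ 2, was at 1.42 there, which is 14.6% of the control mean with a counting interval of 3.01% to 42.6% (exact Poisson, 95%), and at 16.4 in the library labelled RBPJ 1.

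ID1, an inhibitor of helix-loop-helix factors, had 727 to 1309 (median 1172) in the controls, 1142 in the library labelled RBPJ 1 and 409 in RBPJ 2, a log2 difference of -1.38 ± 0.24 (limma adjusted p = 0.000975), and the 2 hairpins differed from each other by -1.48 ± 0.32 (adjusted p = 0.0096). Its relatives ID2 (15.3 to 29.9, median 24.6 in the controls, 9.01 in RBPJ 2, adjusted p = 0.0846) and ID3 (98 to 223, median 166, then 79.7, adjusted p = 0.127) also lay below all 6 controls in RBPJ 2 without passing. Over the 23 tested Notch targets the median log2 difference was -0.17 in RBPJ 2 (-0.27 to -0.11 under the alternatives) and -0.04 in the library labelled RBPJ 1, beside a span of -0.08 to 0.13 over the controls, and it was 0.04 over all genes in each RBPJ library. ID1 is known to answer to BMP signals as well as to Notch, and it was no longer called when plko was added to the controls (adjusted p = 0.0954).

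Genes that moved with both hairpins were few. With the RBPJ libraries taken as a pair, 6 of 10383 genes passed and all 6 were lower (0.0578% of genes tested): the alarm proteins S100A8 and S100A9, the protease inhibitor SERPINB4, the lectin receptor CLEC7A, and the sterol enzymes DHCR7 and ACAT2. Those 6 compare with 716 genes at an unadjusted p under 0.05. Counted by position alone, both RBPJ values lay below all 6 controls for 434 genes (4.18%) and above all 6 for 411 (3.96%). Which library was left out changed the count: it was 3 without shRFP 1, 2 without shRFP 2, 13 without shLUC 2, 331 without the library labelled RBPJ 1 and 32 without RBPJ 2.

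S100A9, which pairs with S100A8 in calprotectin, had almost the same value in both RBPJ libraries. It was at 284 to 399.9 (median 321) in the controls, 125 in the library labelled RBPJ 1 and 132 in RBPJ 2, with no overlap of the groups and a log2 difference of -1.33 ± 0.17 for the pair (limma adjusted p = 0.00492). S100A8 had 104 to 275 (median 122) in the controls, then 45.2 and 13.8, and its difference for the pair was -2.48 ± 0.37 (adjusted p = 0.00871). The plko libraries, which were not tested here, held 55.2 and 130.1 of S100A9 and 17.6 and 97.9 of S100A8, and both genes were thus lower there than in all 6 hairpin controls too. With plko among the controls S100A9 and S100A8 were not called for the pair (limma adjusted p = 0.995 and 0.629). S100A8 also missed the threshold for the pair with voom (adjusted p = 0.0656), with edgeR (0.0637) and with a robust prior variance in limma (0.198). The promoter of S100A8 is given as above and was picked because it holds GTGGGAA, 174 bases before its start. These letters were in 6.25% of all windows, and whether RBPJ binds there was not tested.
S100A8, chr1:153391189-153391438, minus strand: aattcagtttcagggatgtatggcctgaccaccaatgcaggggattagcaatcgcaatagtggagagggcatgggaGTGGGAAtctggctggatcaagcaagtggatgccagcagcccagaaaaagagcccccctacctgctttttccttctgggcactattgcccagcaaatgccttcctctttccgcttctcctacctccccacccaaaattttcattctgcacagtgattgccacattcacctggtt

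SERPINB4, a squamous cell serpin, was at 91 to 263 (median 183) in the controls and at 51.2 and 20.4 in the RBPJ libraries (-2.30 ± 0.34 for the pair, limma adjusted p = 0.00871). Its near-identical neighbour SERPINB3 followed at 81.3 to 228 (median 183), 52.5 and 41.2, and reads of the 2 genes may be shared, so neither value is certain. CLEC7A, known as dectin-1, had 47.1 to 64.8 (median 53.4) in the controls, 25.9 in the library labelled RBPJ 1 and 9.01 in RBPJ 2 (-1.77 ± 0.29, adjusted p = 0.0163), with -1.42 ± 0.38 between the hairpins (adjusted p = 0.0411). That contrast missed the threshold without shRFP 1 (0.066), shRFP 2 (0.0567), shLUC 1 (0.051) or shLUC 2 (0.0526). For the pair, voom did not call SERPINB4 (adjusted p = 0.0513), CLEC7A (0.0744) or DHCR7 (0.0513), and edgeR did not call CLEC7A (0.0706) or DHCR7 (0.0637). SERPINB4 missed the threshold with a robust prior variance in limma (0.114), and DHCR7 (0.0835) and ACAT2 (0.122) with plko among the controls. Without shRFP 2 the calls for SERPINB4 (0.0538), CLEC7A (0.0852), DHCR7 (0.0818) and ACAT2 (0.0593) missed the threshold. Without shRFP 1 CLEC7A (0.0614), DHCR7 (0.0603) and ACAT2 (0.0603) did. CLEC7A also missed it without shLACZ 1 (0.0525), and DHCR7 and CLEC7A without RBPJ 2 (0.0895 and 0.121). Among the genes of smallest p in the upward direction, none of which passed, AMOTL2 was at 109 to 139 (median 127) in the controls with 225 and 215 (adjusted p = 0.0823).

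RBPJ 2, in which the targeted transcript was low, differed from the controls in 333 genes. Of the 10383 genes tested, 80 rose (0.77%) and 253 fell (2.44%), so 24% of the called genes were higher, and 1346 had an unadjusted p under 0.05. The count test of edgeR on recovered reads called all 333 of them among its 508, of which 34.4% were higher, and voom called 547 with 45.5% higher. With plko 1 and 2 added to the controls 122 genes remained, all of them among the 333. The lists with the most lower calls in RBPJ 2 were cholesterol synthesis, sterol uptake, the interferon response and the luminal progenitor list, and the list with the most higher calls was that of EGF ligands and MAPK feedback.

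**Figure D2:**
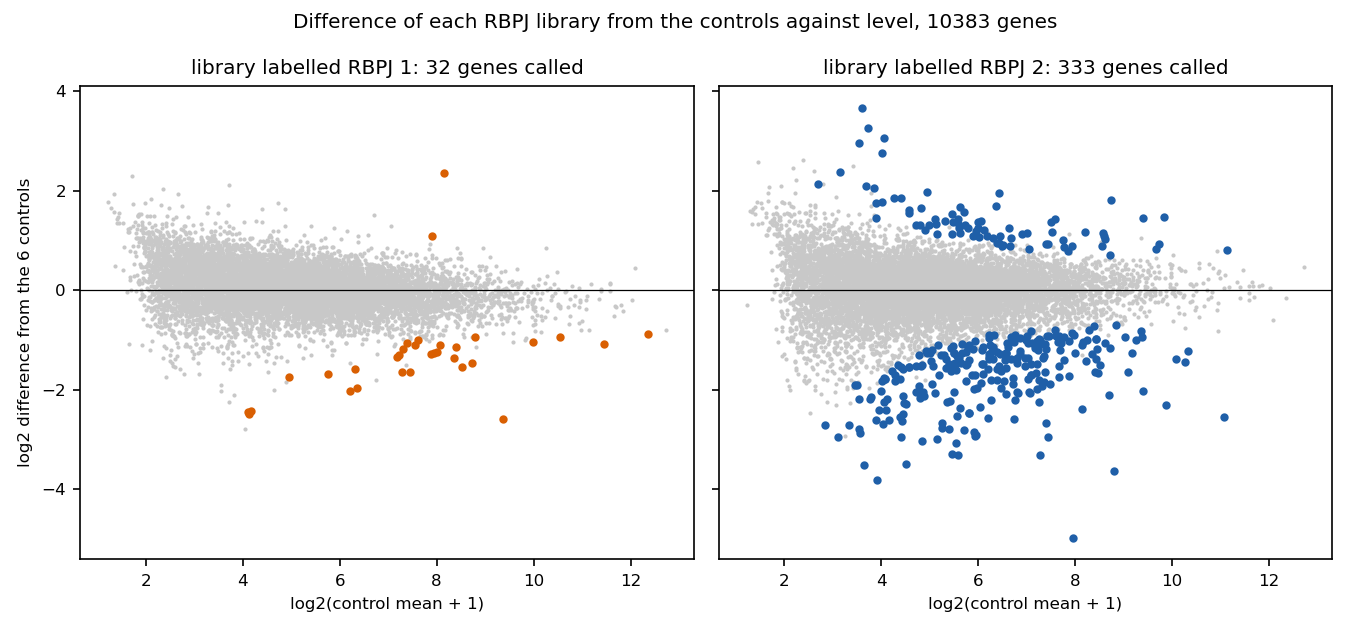
Log2 difference from the mean of the 6 controls (vertical axis) against log2(control mean + 1) for 10383 genes (grey points), with genes called by limma in colour, for RBPJ 1 on the left and RBPJ 2 on the right. RBPJ 1 has 32 called genes, most of them lower and of high level, and RBPJ 2 has 333 spread more widely over the levels.

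The cholesterol pathway fell in RBPJ 2 along most of its length. It turns acetyl units into mevalonate, isoprenoids, squalene and then sterols, and its genes are known to be switched on together by the factor SREBP2 when cell sterol is low. Of the 21 tested genes of cholesterol synthesis 12 fell (2.44% of all genes tested did) and none rose in RBPJ 2. There 20 lay below all 6 controls, as did 18.4% of all genes tested. The median log2 difference was -1.23 in RBPJ 2 and -0.46 in the library labelled RBPJ 1, beside -0.09 to 0.24 over the controls and 0.04 over all genes in each RBPJ library. The library labelled RBPJ 1 had 13 of the 21 below all controls, against 15.3% of all genes tested, but 1 called gene. In both libraries 12 were below all controls (4.18% of all genes). Leaving out a control gave 11 to 13 called genes in RBPJ 2, and adding plko gave 9.

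MSMO1, which removes methyl groups from the sterol ring, fell most, with 788 to 1016 (median 973) in the controls, 188 in RBPJ 2 and 869 in the library labelled RBPJ 1. Its log2 difference was -2.31 ± 0.19 in RBPJ 2 (limma adjusted p = 1.1e-07) and -0.11 ± 0.19 in the library labelled RBPJ 1 (adjusted p = 0.965), and the hairpins differed by -2.20 ± 0.25 (adjusted p = 2.1e-05). The same order held for IDI1, which isomerises the first isoprene unit, with 390.0 to 434 (median 421) in the controls, 300.4 in the library labelled RBPJ 1 and 95.3 in RBPJ 2. Both libraries lay below its narrow control range, but only RBPJ 2 passed (-2.11 ± 0.19, adjusted p = 2.42e-07, against 0.502).

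At the other steps the sizes differed. HMGCS1, an early enzyme that makes the precursor of mevalonate, had 19.9 in RBPJ 2 against 46.5 to 91.8 (median 60.5) in the controls, the squalene-forming and squalene-oxidising enzymes FDFT1 and SQLE had 33.7 and 39.8 against 72.1 to 125 (median 85.4) and 95.7 to 171 (median 147), and all of these passed. LBR, a sterol reductase that is also a nuclear envelope protein, had 69.7 to 95.3 (median 71.2) in the controls and 20.9 in RBPJ 2, and lay inside the control range at 73.3 in the library labelled RBPJ 1 (adjusted p of the difference between hairpins 0.00412). DHCR7, which makes the last reduction, and ACAT2, at the first step, were low in both libraries. DHCR7 had 107 to 149.7 (median 139) in the controls, 69.6 in the library labelled RBPJ 1 and 31.3 in RBPJ 2, and ACAT2 had 141 to 198 (median 167), then 79.1 and 72.5, nearly the same with both hairpins (-0.12 ± 0.29 between them, adjusted p = 0.935). NSDHL was lowest in the library labelled RBPJ 1 (53, 65 in RBPJ 2, 90 to 132, median 106 in the controls) and passed in neither (adjusted p = 0.0786 and 0.128). PMVK was the single gene of the list within the control range in RBPJ 2, at 71.1 against 58 to 79.2 (median 67.4).

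**Figure D3:**
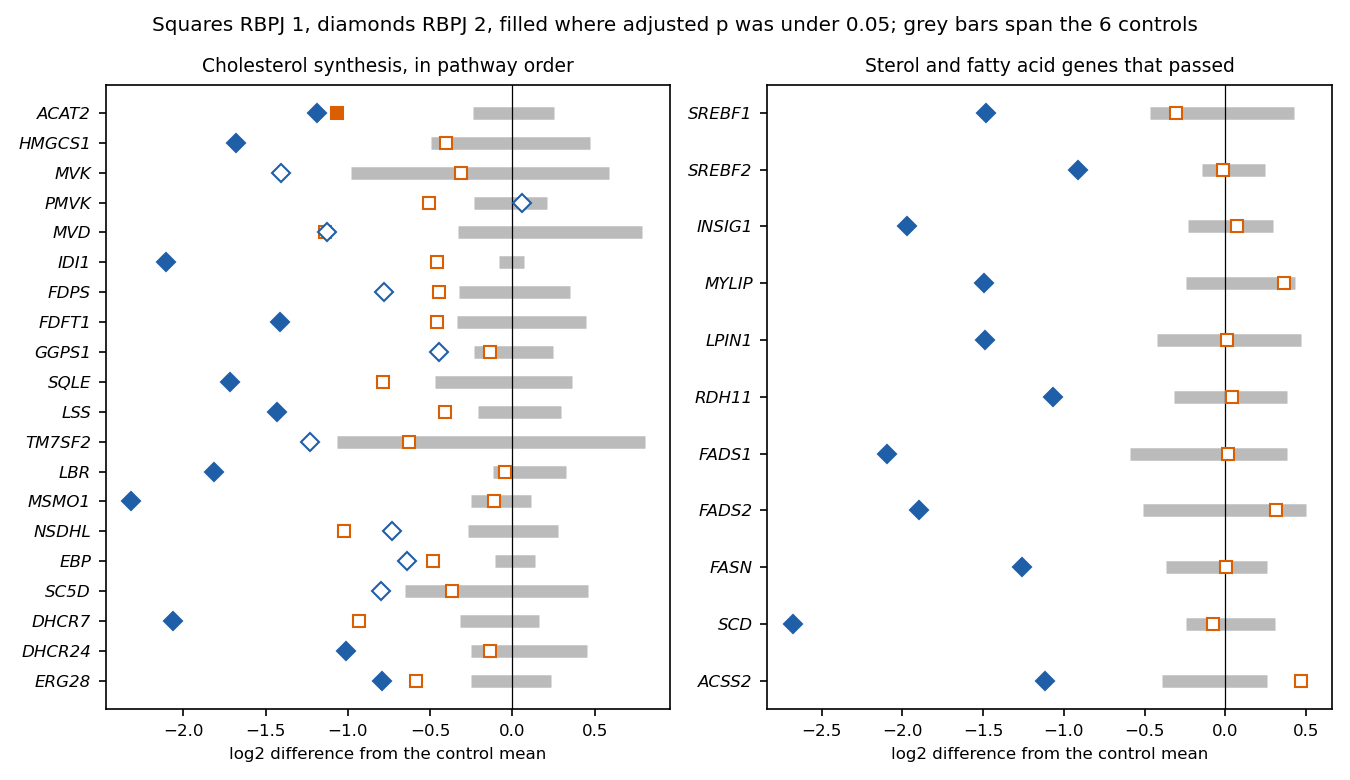
Log2 difference from the control mean for 20 of the 21 tested genes of cholesterol synthesis (left) and 11 genes of sterol uptake, SREBP control and fatty acid synthesis that passed (right), with squares for RBPJ 1, diamonds for RBPJ 2, filled symbols where the limma adjusted p was under 0.05, and grey bars over the range of the 6 controls. Nearly all diamonds on the left lie left of the bars, while on the right the squares lie within or near them.

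Genes that control sterol uptake and SREBP fell in RBPJ 2. Of 22 tested, 10 fell and none rose in RBPJ 2 (median -0.57), where 2.44% of all genes tested fell. In the direct contrast 5 were lower there than in the library labelled RBPJ 1 (1.62% of all genes were). In the library labelled RBPJ 1, 0 passed (median 0.00, control span -0.15 to 0.18). Adding plko to the controls left 5 of the 10. INSIG1, which holds the SREBP precursors in the endoplasmic reticulum, had 73.5 to 107 (median 82.8) in the controls and 21.3 in RBPJ 2, and stood at 91 in the library labelled RBPJ 1. Its log2 difference was -1.97 ± 0.27 in RBPJ 2 (limma adjusted p = 4.64e-05) and -2.04 ± 0.35 between the hairpins (adjusted p = 0.00146). MYLIP, a ubiquitin ligase of sterol uptake, fell too (14.7 in RBPJ 2 against 36.4 to 58.6, median 41.4 in the controls). Members that fell also included the SREBP genes SREBF1 and SREBF2, the desaturases FADS1 and FADS2, LPIN1 and RDH11.

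SREBF2 encodes SREBP2 and its own promoter carries a sterol response element, so it is shown here with the core letters TCACCCCAC in capitals, 133 bases before the start.
SREBF2, chr22:41832855-41833104, plus strand: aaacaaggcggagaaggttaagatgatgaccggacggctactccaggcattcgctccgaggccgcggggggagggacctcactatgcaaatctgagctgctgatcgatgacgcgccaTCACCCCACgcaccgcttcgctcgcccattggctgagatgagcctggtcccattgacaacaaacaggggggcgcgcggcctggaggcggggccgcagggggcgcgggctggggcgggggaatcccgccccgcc
Searched on both strands, these letters were in 0.43% of all windows and in 1 of the 20 genes of this list with a window, which was SREBF2, and in none of the 16 cholesterol synthesis genes with a window. The looser form TCACNCCAC, which includes them, was in 1.13% of windows and in no further gene of these 2 lists. The SREBF2 transcript was at 173 to 228 (median 184) in the controls, 190.5 in the library labelled RBPJ 1 and 101 in RBPJ 2 (-0.91 ± 0.21, limma adjusted p = 0.0139).

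Fatty acid synthesis changed in 3 of 18 tested genes in RBPJ 2, all lower, where 2.44% of all genes tested were lower. The median log2 difference of the list was -0.181 in RBPJ 2, at the edge of the control span of -0.18 to 0.139. It was -0.041 in the library labelled RBPJ 1. SCD, which puts the double bond into stearate, had 140.3 to 206 (median 158) in the controls, 158 in the library labelled RBPJ 1 and 25.1 in RBPJ 2 (-2.68 ± 0.24, limma adjusted p = 2.42e-07). FASN, the fatty acid synthase, had 194 to 301 (median 251), then 252 and 104 (-1.26 ± 0.22, adjusted p = 0.00112). In both genes the library labelled RBPJ 1 sat at the control median while RBPJ 2 was below every control. The third was ACSS2, at 32.8 to 52.1 (median 45.7), 60.4 and 19.4. ACSS2 missed the threshold without shRFP 1, shRFP 2 or shLUC 2, with 14 libraries in the fit and with plko among the controls.

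Interferon response genes fell in RBPJ 2, and 2 others of the list rose in the library labelled RBPJ 1. Of 41 tested, 10 fell (2.44% of all genes tested did) and none rose in RBPJ 2. There 26 lay below all 6 controls (18.4% of all genes tested did). The median log2 difference was -0.68 in RBPJ 2 and 0.33 in the library labelled RBPJ 1, the latter inside the span of -0.32 to 0.41 over the controls. Leaving out a control gave 7 to 12 called genes in RBPJ 2, adding plko gave 4 and the fit over 14 libraries gave 3. IFIT3 and IFIT2, antiviral RNA-sensing proteins, had 43.4 to 76 (median 57.9) and 22.5 to 50.3 (median 35.6) in the controls and 7.11 and 3.32 in RBPJ 2 (-2.85 ± 0.32, limma adjusted p = 4.08e-06, and -3.00 ± 0.38, adjusted p = 1.92e-05). Their values of 48.5 and 27.6 in the library labelled RBPJ 1 were within the control range. IFIT1 had 20.4 to 59.1 (median 35.8) in the controls, 44 in the library labelled RBPJ 1 and 4.27 in RBPJ 2 (-2.77 ± 0.42, adjusted p = 0.000182). OASL held 2 reads in RBPJ 2, which is 4.34% of the control mean with a counting interval of 0.525% to 15.7% (exact Poisson), against 13.6 to 32.3 (median 20.5) in the controls.

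IFI6 went in opposite directions. This interferon-induced mitochondrial protein had 142 to 524 (median 235) in the controls, 1277 in the library labelled RBPJ 1 and 101 in RBPJ 2. It rose in the library labelled RBPJ 1 (2.34 ± 0.43, limma adjusted p = 0.0117, or 0.0541 without shRFP 2), was -1.31 ± 0.43 in RBPJ 2 (adjusted p = 0.113), and the hairpins differed by -3.65 ± 0.56 (adjusted p = 0.000476). Its level in plko 1 and 2 was 973 and 367. The rise in the library labelled RBPJ 1 was not called with plko among the controls or with 14 libraries in the fit. It was not called with DESeq2 on recovered reads or with a robust prior variance in limma either. The contrast between the hairpins lost its call with plko among the controls and with the robust prior variance.

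The promoters of IFIT1, IFIT3 and IFI6 are shown because these genes fell together or split between the hairpins. Capitals mark matches to GAAANNGAA, core letters of the interferon response element, which read TTCNNTTTC where the match is on the opposite strand, and matches may overlap.
IFIT1, chr10:89392373-89392622, plus strand: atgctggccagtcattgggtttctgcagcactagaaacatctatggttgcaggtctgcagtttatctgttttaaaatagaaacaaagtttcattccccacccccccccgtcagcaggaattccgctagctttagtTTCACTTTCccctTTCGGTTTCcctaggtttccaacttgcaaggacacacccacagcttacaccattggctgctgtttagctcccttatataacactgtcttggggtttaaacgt
IFIT3, chr10:89332279-89332528, plus strand: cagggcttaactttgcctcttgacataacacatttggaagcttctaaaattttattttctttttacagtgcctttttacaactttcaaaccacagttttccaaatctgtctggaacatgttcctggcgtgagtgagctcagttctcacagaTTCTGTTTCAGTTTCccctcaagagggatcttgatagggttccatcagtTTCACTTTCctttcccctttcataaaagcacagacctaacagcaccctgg
IFI6, chr1:27672193-27672442, minus strand: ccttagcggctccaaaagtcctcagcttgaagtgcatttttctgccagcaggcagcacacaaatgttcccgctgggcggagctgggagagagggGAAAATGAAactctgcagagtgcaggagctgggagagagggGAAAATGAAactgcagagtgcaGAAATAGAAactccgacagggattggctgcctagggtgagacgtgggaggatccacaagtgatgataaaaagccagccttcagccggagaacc
IFIT1 holds 2 matches and IFIT3 holds 3, all on the opposite strand, and IFI6 holds 3 on its own strand, the nearest 93 bases before the start. The letters were in 23 of the 33 tested interferon response genes with a window and in 8.11% of all windows. Genes with these letters thus include both those that fell in RBPJ 2 and IFI6, which did not pass there.

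**Figure D4:**
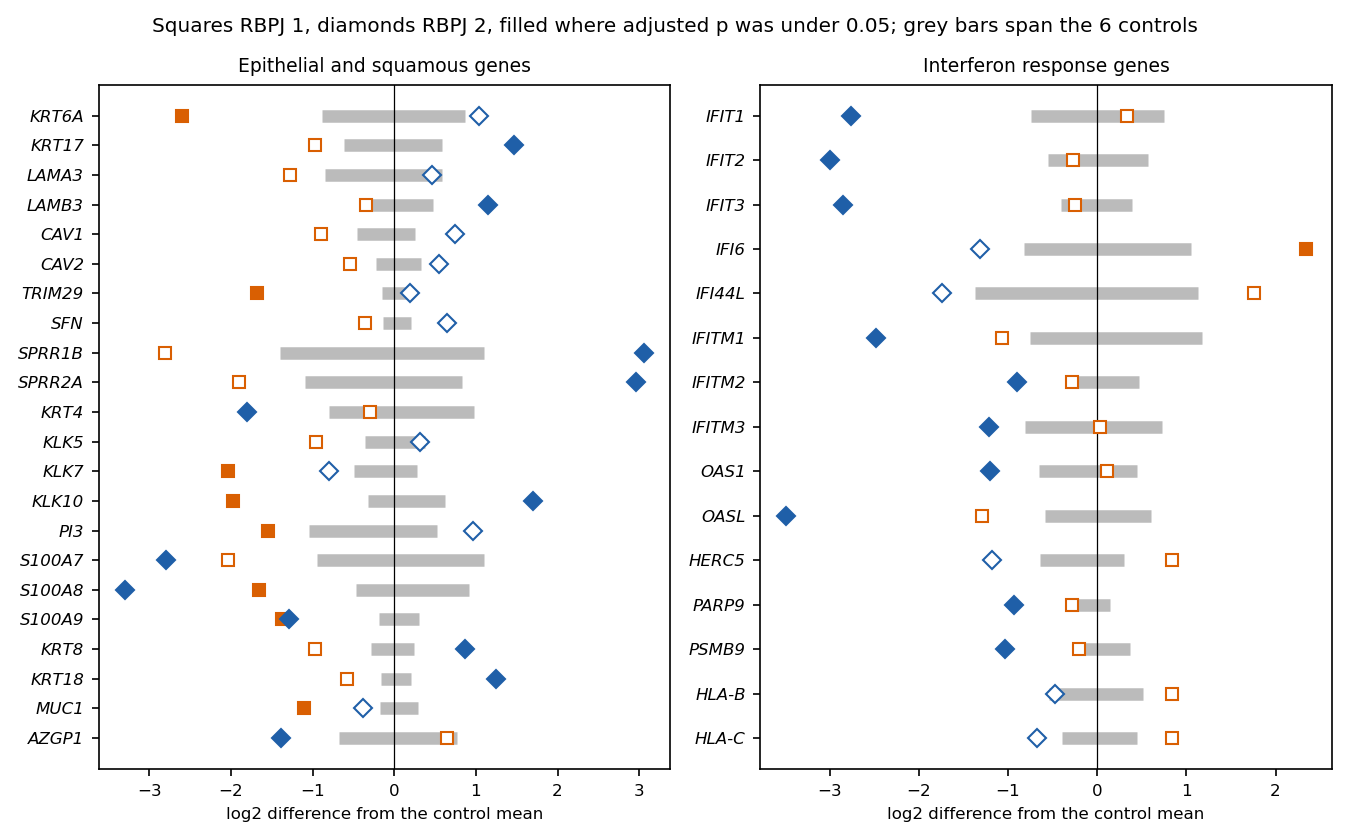
Log2 difference from the control mean for 22 genes of the basal, squamous and simple epithelial lists (left) and 15 interferon response genes (right) that passed in at least 1 comparison, with squares for RBPJ 1, diamonds for RBPJ 2, filled symbols where the limma adjusted p was under 0.05, and grey bars over the range of the 6 controls. On the left KRT6A, KRT17 and KLK10 lie on opposite sides of the bars in the 2 libraries, and on the right IFI6, among others, does.

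Part of the luminal progenitor list fell in RBPJ 2. Of 17 tested, 6 fell and 1 rose, against 2.44% and 0.77% of all genes tested. The median was -1.54 in RBPJ 2, -0.34 in the library labelled RBPJ 1 and -0.36 to 0.24 over the controls. The median in RBPJ 2 depended on the genes kept: it was -0.40 with only genes of a mean value of 20 or more, and -1.75 to -1.18 under the other alternatives. RARRES1, a retinoic acid-responsive membrane protein, had 1470 to 2803 (median 2132) in the controls, 1628 in the library labelled RBPJ 1 and 358 in RBPJ 2 (-2.55 ± 0.24, limma adjusted p = 3.2e-07). CD14, the lipopolysaccharide co-receptor, had 37.4 to 55.2 (median 45), then 38.3 and 7.11 (-2.53 ± 0.31, adjusted p = 1.49e-05). The protease MMP7 had 51.9 to 78.8 (median 64.8), then 53.7 and 11.8 (-2.34 ± 0.28, adjusted p = 1.12e-05). In these 3 genes the library labelled RBPJ 1 was within the control range and the contrast between hairpins passed (adjusted p = 0.000236, 0.00206 and 0.00184). The gene that rose was ALDH1A3, which makes retinoic acid, at 153 to 220.4 (median 173) in the controls, 126 in the library labelled RBPJ 1 and 405 in RBPJ 2 (1.16 ± 0.23, adjusted p = 0.00346). Adding plko left 3 of the 6 lower calls and the higher one, while ALDH1A3 missed the threshold with 14 libraries in the fit (0.0561).

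The single gene that fell most in RBPJ 2 was DMBT1, a secreted scavenger protein of mucosal surfaces. It had 296, 292, 425, 104, 207 and 161 in the controls in the order named above, 229 in the library labelled RBPJ 1 and 6.16 in RBPJ 2 (-4.97 ± 0.42, limma adjusted p = 1.1e-07). It varied widely among the controls, yet RBPJ 2 lay far below the lowest of them. PLA2G2A, a secreted phospholipase, had 217 to 699.5 (median 456) in the controls, 186 in the library labelled RBPJ 1 and 32.2 in RBPJ 2 (-3.64 ± 0.38, adjusted p = 1.79e-06). Other secreted products that fell in RBPJ 2 were STC1, a stanniocalcin (3.32 in RBPJ 2 against 25.8 to 61, median 42.9 in the controls), and CP, the copper-carrying ferroxidase (6.64 in RBPJ 2 against 34.7 to 103, median 56 in the controls), with 33.3 and 75.6 in the library labelled RBPJ 1. The lipid-droplet methyltransferase METTL7A (4.27 in RBPJ 2 against 21.1 to 63.2, median 47.7 in the controls) and the long noncoding RNA LINC03040 (2.37 in RBPJ 2 against 17.9 to 40.3, median 25.1 in the controls) fell alike. All of these kept their call under each alternative run, plko among the controls included.

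Amino acid and stress genes split between the hairpins. Of 30 tested genes of the unfolded protein and integrated stress responses, 5 fell and 1 rose in RBPJ 2. Among all genes tested 2.44% fell and 0.77% rose there. In the library labelled RBPJ 1, 14 of the 30 lay above all controls, against 16.4% of all genes tested, and none was called. The medians were -0.27 in RBPJ 2 and 0.40 in the library labelled RBPJ 1, beside -0.07 to 0.21 over the controls. PHGDH and PSAT1, enzymes of serine synthesis, had 272 to 483 (median 338) and 233 to 431 (median 350.1) in the controls. They fell in RBPJ 2 to 109 (-1.66 ± 0.26, limma adjusted p = 0.000246) and 106 (-1.64 ± 0.25, adjusted p = 0.000209), and stood above all controls at 582 and 599 in the library labelled RBPJ 1 (adjusted p = 0.329 and 0.211). ASNS, the asparagine synthetase, followed with 54.2 to 172 (median 106), 278 in the library labelled RBPJ 1 and 25.6 in RBPJ 2, and DDIT4, an inhibitor of mTORC1, with 16.1 to 40.8 (median 28.9), 84.5 and 5.69. The contrast between hairpins passed for all 4 (adjusted p from 0.000118 to 0.000248). PPP1R15A, a phosphatase subunit that undoes the stress mark on the initiation factor eIF2, was the member that rose in RBPJ 2, at 70.7 against 17.1 to 30.6 (median 21.6) in the controls and 34.1 in the library labelled RBPJ 1. With plko among the controls 1 of the 5 lower calls, PHGDH, was kept. The call of ASNS in RBPJ 2 was also lost with a robust prior variance in limma.

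Among the genes that rose in RBPJ 2, ligands and feedback genes of the EGF receptor held the most calls of any list. Of 20 tested, 5 rose and 1, FOS, fell, against 0.77% and 2.44% of all genes tested. The median was 0.53 in RBPJ 2, 0.04 in the library labelled RBPJ 1 and -0.28 to 0.24 over the controls. AREG, an EGF receptor ligand, had 17 to 36.5 (median 28.4) in the controls, 22.4 in the library labelled RBPJ 1 and 84.9 in RBPJ 2 (1.65 ± 0.36, limma adjusted p = 0.00892). PHLDA1, a MAPK-induced gene, had 68.1 to 117 (median 106), then 78.8 and 234 (1.25 ± 0.26, adjusted p = 0.00518). The rest were the ligands TGFA (85.3 in RBPJ 2 against 23.9 to 43.5, median 34.2 in the controls) and HBEGF (46 in RBPJ 2 against 7.5 to 20.4, median 13.1 in the controls) and the AP-1 subunit FOSL1 (90.1 in RBPJ 2 against 3.15 to 32.7, median 13.1 in the controls). FOSL1 lost its call with 14 libraries in the fit, with DESeq2 on recovered reads and with a robust prior variance in limma. HBEGF missed the threshold without shRFP 1 (0.0535), shLACZ 2 (0.05) or shLUC 1 (0.065), and AREG and PHLDA1 were the 2 that kept their call with plko among the controls.

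Some basal and simple epithelial genes rose in RBPJ 2. Of 20 tested basal genes, 3 rose and none fell in RBPJ 2, where 0.77% of all genes tested rose. In the library labelled RBPJ 1, 2 of them fell (0.289% of all genes did). Between the libraries, 9 were higher in RBPJ 2 than in the library labelled RBPJ 1 (1.22% of all genes were). The medians were 0.53 in RBPJ 2 and -0.44 in the library labelled RBPJ 1, beside -0.20 to 0.29 over the controls. The basal keratin KRT17 had 579 to 1329 (median 885) in the controls, 453 in the library labelled RBPJ 1 and 2440 in RBPJ 2 (1.46 ± 0.26, limma adjusted p = 0.00123), and LAMB3, a chain of the laminin that anchors basal cells, had 98.6 to 176 (median 124), then 99 and 282. For KRT17 both RBPJ libraries were outside the control range, on opposite sides. KRT18 and KRT8, the keratin pair of simple epithelium, followed the same order, with 42.2 to 55.1 (median 47.3) and 177 to 256 (median 228) in the controls, 31.6 and 109.9 in the library labelled RBPJ 1, and 114 and 395 in RBPJ 2. They were 2 of 19 tested genes of simple and luminal epithelium, and the median of that list was -0.07 in RBPJ 2 and 0.05 in the library labelled RBPJ 1 (control span -0.11 to 0.11). The list also held 1 lower call in each library, MUC1 in the library labelled RBPJ 1 and AZGP1, a secreted glycoprotein, in RBPJ 2. AZGP1 had 203 to 555 (median 343) in the controls, 510.5 in the library labelled RBPJ 1 and 124 in RBPJ 2 (-1.39 ± 0.32, adjusted p = 0.0118, or 0.241 with plko among the controls). KRT8 missed the threshold in RBPJ 2 without shRFP 2 (0.0511), and KRT17, LAMB3, KRT18 and KRT8 all lost their call in RBPJ 2 with plko among the controls. KRT17 also lost it with 14 libraries in the fit. AZGP1 lost its call in RBPJ 2 with 14 libraries in the fit, with DESeq2 on recovered reads and with a robust prior variance in limma.

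Squamous genes showed no common direction in RBPJ 2. Of 20 tested, 3 rose and 4 fell, against 0.77% and 2.44% of all genes tested. The median was 0.04 (control span -0.23 to 0.14). The cornified-envelope proteins SPRR1B and SPRR2A rose to 115 and 78.2 against 4.25 to 28.8 (median 16) and 3.78 to 17.1 (median 10.5) in the controls (3.06 ± 0.65, limma adjusted p = 0.00647, and 2.96 ± 0.63, adjusted p = 0.00615), with 0.99 and 1.74 in the library labelled RBPJ 1, and reads of SPRR2A may be shared with its close copies. The protease KLK10 was the third that rose. KRT4 and 3 S100 genes, S100A7, S100A8 and S100A9, were the members that fell. S100A7 held 1 read in RBPJ 2, which is 4.39% of the control mean with a counting interval of 0.111% to 24.5% (exact Poisson, 95%). Its call was lost with a pseudocount of 4, with voom, and without shRFP 1 or shLUC 1. None of the 7 calls was kept with plko among the controls. Those of SPRR1B and KRT4 were also lost with DESeq2 on recovered reads and with a robust prior variance in limma.

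DKK1 and ANGPTL4 had the largest rises of the genes called in RBPJ 2. DKK1, a secreted inhibitor of Wnt signals, had 7.04 to 26.5 (median 9.69) in the controls, 1.49 in the library labelled RBPJ 1 and 112 in RBPJ 2 (3.25 ± 0.54, limma adjusted p = 0.00062), and the hairpins differed by 5.50 ± 0.71 (adjusted p = 0.000104). The lipoprotein lipase inhibitor ANGPTL4 had 2.52 to 32 (median 9.04), then 3.73 and 115 (3.67 ± 0.75, adjusted p = 0.00451). ANGPTL4 lost its call with DESeq2 on recovered reads and with a robust prior variance in limma. Neither gene kept its call with plko among the controls. UPP1, a uridine phosphorylase, and RNF223, a RING finger protein, did, at 118 and 52.2 in RBPJ 2 against 20.2 to 41.5 (median 29.5) and 8.45 to 17 (median 11.2) in the controls.

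In the library labelled RBPJ 1, whose RBPJ transcript was at the control level, 32 genes passed. Of the 10383 tested, 2 rose (0.0193%) and 30 fell (0.289%), so 6.25% of the called genes were higher, and 791 had an unadjusted p under 0.05. Called lower genes were mostly abundant, 17 of the 30 being among the 1039 genes of highest control level, whose median difference in this library was -0.15. The count changed with the controls used: it was 15 without shRFP 1, 14 without shRFP 2, 84 without shLACZ 1, 6 with 14 libraries in the fit and 0 with plko added to the controls, where 215 genes had an unadjusted p under 0.05. On recovered reads edgeR called 104 (22.1% higher), DESeq2 160 and voom 313 (38.3% higher). Quantile normalization, tried after the trend with level was seen, called 23, of which 20 were among the 32.

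The genes that fell included several of keratinocytes. Of 20 tested squamous genes 5 fell (0.289% of all genes tested did) and none rose, and 11 lay below all controls (15.3% of all genes tested did). The median was -1.02 beside -0.23 to 0.14 over the controls, or -0.68 with plko among the controls. KRT6A, a keratin of stressed and basal keratinocytes, had 329 to 1103 (median 681) in the controls, 99.2 in the library labelled RBPJ 1 and 1251 in RBPJ 2 (-2.60 ± 0.37 in the library labelled RBPJ 1, limma adjusted p = 0.00147), and reads of its close copies KRT6B and KRT6C may be shared with it. KLK10 and KLK7, proteases of the epidermis, had 63.4 to 122 (median 76.8) and 51 to 88.2 (median 75.7) in the controls and 19.4 and 16.9 in this library (-1.98 ± 0.28 and -2.04 ± 0.29, adjusted p = 0.00147 for each). Unlike KLK10, KLK7 was also below all controls in RBPJ 2 (41.2, adjusted p = 0.163). TRIM29, a basal-type TRIM protein, had 47.9 to 58.6 (median 53.1), then 15.9 in the library labelled RBPJ 1 and 60.7 in RBPJ 2, and S100A2, another keratinocyte S100 protein, had 62.9 to 110.3 (median 73.9), then 24.9 and 51.2 (adjusted p = 0.00395 and 0.0117 in the library labelled RBPJ 1).

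The empty-vector libraries were low in several of the same genes. The values in plko 1 and plko 2 were 64 and 276 for KRT6A, 6.62 and 27.3 for KLK10, 19.9 and 29.7 for TRIM29 and 19.9 and 49 for S100A2, all of them below the lowest of the 6 hairpin controls. For KLK7 the values of 24.3 and 88.6 lay below the lowest and just above the highest control. Whether what sets plko apart also acts in the library labelled RBPJ 1 was not tested. KLK10, KLK7, KRT6A, TRIM29, S100A2 and S100A9 kept their call in this library under each removal of a control, and all lost it with plko among the controls (adjusted p = 0.999 for each). KRT6A and S100A9 also lost it with 14 libraries in the fit, and KRT6A with a robust prior variance in limma.

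PI3, MUC1 and ACAT2 were also called lower in this library. The protease inhibitor PI3 (elafin) had 169 to 503 (median 374) in the controls, 119 in the library labelled RBPJ 1 and 685 in RBPJ 2 (-1.55 ± 0.33, limma adjusted p = 0.0446), and missed the threshold without shRFP 1 (0.105), shRFP 2 (0.107) or shLACZ 2 (0.0698). The mucin MUC1 had 164 to 228 (median 181), then 85.8 and 142 (adjusted p = 0.0251; 0.0687 without shRFP 1 and 0.0624 without shRFP 2). ACAT2 was the cholesterol gene called here (adjusted p = 0.044), and lost the call without shRFP 1 (0.105), shRFP 2 (0.0931) or shLACZ 2 (0.0608).

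Set directly against each other, RBPJ 2 and the library labelled RBPJ 1 differed in 295 genes, 127 higher in RBPJ 2 (1.22%) and 168 lower (1.62%). This contrast compares 2 libraries, with the spread of the 6 controls as its error, and needs no control level. KLK10 had the smallest p of the genes named here that were higher, at 259 against 19.4 (3.67 ± 0.37, limma adjusted p = 9.59e-06), and it was the gene called against the controls in both libraries in opposite directions (1.70 ± 0.28 in RBPJ 2, adjusted p = 0.000647). SPRR1B (5.87 ± 0.85), SPRR2A (4.85 ± 0.82) and KRT6A (3.64 ± 0.48) were also higher in RBPJ 2, and DMBT1 (-5.00 ± 0.55), ASNS (-3.39 ± 0.48) and IFI6 (-3.65 ± 0.56) were lower, all with an adjusted p of 0.00129 or less. BAIAP2L2, an actin-regulating protein, had 42.2 in RBPJ 2, 2.24 in the library labelled RBPJ 1 and 12.6 to 25.7 (median 14.5) in the controls. The count was 181 with 14 libraries in the fit, 670 with edgeR and 875 with voom, where 53.9% were higher, against 43.1% here. It was 3 with plko among the controls, all 3 lower in RBPJ 2, since the spread among 8 controls is then the error.

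Other lists held few calls. Of 40 tested genes of mitosis 3 fell in RBPJ 2, against 2.44% of all genes tested. There 27 lay below all controls, against 18.4% of all genes tested (median -0.34, control span -0.09 to 0.06). The kinesin CENPE was at 9.48 against 32.4 to 69.5 (median 39). Of 38 genes of G1/S and DNA replication and 30 of polarity and asymmetric division none passed in either library. Of 22 heat shock genes 4 were higher in RBPJ 2 than in the library labelled RBPJ 1 (1.22% of all genes tested were). The medians were 0.44 and -0.34 beside -0.11 to 0.14 over the controls. Against the controls 1 rose in RBPJ 2, HSPA1B, at 119 against 37.4 to 52.9 (median 49.8) in the controls and 78.6 in the library labelled RBPJ 1, and its reads may be shared with its twin copy HSPA1A. The small heat shock protein HSPB1 was the member that fell in the library labelled RBPJ 1, at 1306 against 1785 to 3455 (median 2911) in the controls and 3673 in RBPJ 2 (limma adjusted p = 0.0489). Its call was lost without shRFP 1 (0.111), shRFP 2 (0.124) or shLACZ 2 (0.0671). Oxidative phosphorylation genes, 52 of them, held no call in either library.

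**Figure D5:**
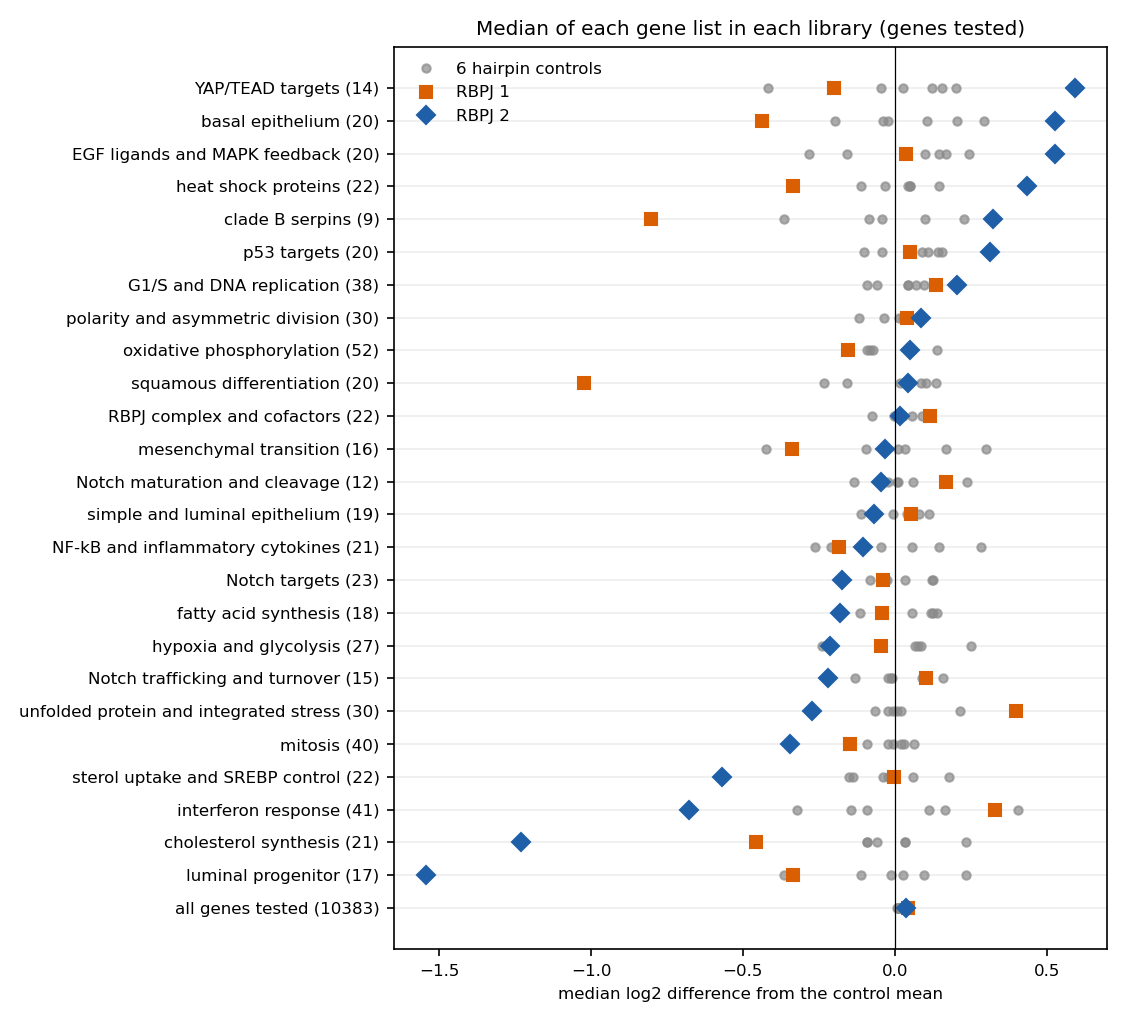
Median log2 difference from the control mean of all genes tested and of 25 gene lists in each of the 8 libraries, with the number of genes tested in brackets, grey points for the 6 controls, squares for RBPJ 1 and diamonds for RBPJ 2. In RBPJ 2 the medians of luminal progenitor, cholesterol synthesis and interferon response genes are -1.54, -1.23 and -0.68, where the alternatives gave -1.75 to -0.40, -1.473 to -1.004 and -0.83 to -0.60, and in RBPJ 1 squamous differentiation is at -1.02 (-1.22 to -0.68).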

How the data were processed

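The deposited values are a signal per gene, which the authors made with DESeq2 normalisation, per the deposited file's name. The submitters' processing notes name GRCh37 as the build. Aligner and counter: not given in the sources used here. Per the labels' protocols, 3′ cDNA was barcoded in batches of 12 and some samples were run a second time. Each value was a whole multiple of 1 read in its library (100% within 0.05 of a read), and 2 columns matching no sample were not used.

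Genes with a value of 5 or more in at least 2 of the 8 columns were tested on log2(value + 1) with limma 3.58.1 (R 4.3.3, trend in the prior variance, Benjamini-Hochberg adjustment over 10383 genes), so fold changes of low genes are understated. The model held the 6 controls and either both RBPJ libraries as 1 group or each as its own. Alternatives included a robust empirical Bayes prior variance in limma. Alternatives named beside a gene are some of those that ended its call, not always all. Count tests on recovered reads used edgeR 4.0.16, which called 3 genes for the pair, 508 for RBPJ 2, 104 for RBPJ 1 and 670 between them, and DESeq2 1.42.0. Named genes were, per direction and comparison, the 12 of largest change among those called with a mean of 20 or more in the RBPJ libraries or the controls (where under 5 passed, those of smallest p up to 5, by values only), list members that passed, and members of the Notch and cholesterol lists. Called genes of lower mean numbered 29 for RBPJ 2, 3 for RBPJ 1 and 8 between them. The members and the gene lists were chosen with earlier results of these data known. The tests were checked on simulated data in which the RBPJ libraries were given the spread of the controls. That check cannot say whether a lone library varies as the controls do. Depth was 580015 to 3090666 reads, and intervals cover counting error only, since reads are not given as independent molecules. A few results are not reported here.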

Additional observations from a re-analysis of the deposited data

Results flagged for a closer look

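In 3 of 84 genes of the report that were examined, 1 of the 6 hairpin controls stood apart from the other 5 by a gap above Dixon's 95% critical value for the share of the controls' range, where chance alone gives about 1 in 20. KLK10 was at 122 in shLACZ 2, still below its value in RBPJ 2. DKK1 was at 26.5 in shLUC 1 and ANGPTL4 at 32.0 in shLUC 2, each the highest control and below the value in RBPJ 2.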

How the results depend on the processing

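The depth of the controls (580015 to 1264671 reads, with 1 read worth 0.63 to 1.41) limits genes of low value, and a lone library per hairpin limits every call. For the 2 hairpins as a pair (6 genes) the count was 13 with a pseudocount of 4, 2 with plko added to the controls, 15 with TMM log2 CPM, 2 with voom, 3 with edgeR and 54 with DESeq2. Leaving out 1 library gave 2 to 331 for the pair, and its RBPJ transcript difference ran from -0.153 without RBPJ 2 to -2.367 (adjusted p = 1.31e-05) without the library labelled RBPJ 1. For RBPJ 2 (333 genes) it was 122 with plko added, 547 with voom and 508 with edgeR, and 24% of calls were higher in the main test against 10.7% with plko, 34.4% with edgeR and 45.5% with voom. For the library labelled RBPJ 1 (32 genes) it was 21 with no filter on low values, 6 with 14 libraries, 0 with plko, 313 with voom (38.3% higher), 104 with edgeR (22.1%) and 160 with DESeq2, and 14 to 84 over the removals of 1 control. Between the hairpins (295 genes) it was 181 with 14 libraries, 3 with plko, 875 with voom and 670 with edgeR. A replicate block on the label numbers gave 33 genes for the pair. There was little sign that those numbers pair the samples (6 correlations of 0.01 to 0.23, 1 of them over 0.1), but a pairing is not excluded. No called gene named by the rule changed direction, and 41 of 107 kept their call in RBPJ 2 under all alternatives, against 0 of 6 for the pair, 0 of 19 for the library labelled RBPJ 1 and 0 of 92 between the hairpins.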
